A study of Mus musculus with 12 samples.

Results

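The 10 genes described here come from a mouse B-cell RNA sequencing series: Myo1f, Cdh17, Dkk3, Nfam1, Atp1b1, Tcn2, Camk2a, Adhfe1, Pfn2 and Ccm2. They were chosen by their Moz knockout and control counts, which differed in germinal centre (GC) B cells in the same direction in both pairs of pools, 7 higher and 3 lower in the knockout. They are 10 of the 27179 gene IDs in the count table, and all 10 passed the filter on low counts, applied over all 12 libraries. Adhfe1 and Dkk3 passed it only through their GC libraries. The Moz values chose them, so those values are given below as a description, with no test. Tests of the 10 genes are given only for the Myb comparisons and for plasmablasts against GC B cells.

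The series holds 12 libraries in 6 groups of 2, with RNA from 2 to 8 pooled C57BL/6 mice in each library (n = 2 pools in every group). In the Moz experiment GC B cells were sorted on day 7 after immunisation with NP-KLH, a hapten coupled to a carrier protein, precipitated in alum. Both Moz groups carried 1 copy (T/+) of a cre allele that is active in GC B cells. The knockout (14 mice) also carried Moz fl/fl, and the control (11 mice) had the cre allele alone. In the Myb experiment the control was Myb fl/fl without cre and the knockout was Myb fl/fl CD23-cre T/+, whose cre is driven from a mature B-cell gene. Its GC B cells (5 mice in each group) were sorted on day 12, and its plasmablasts (PB; 13 control and 9 knockout mice) on day 5 after a boost with NP-KLH in PBS. Cre and the loss of Myb cannot be told apart in that design. Day, cre, genotype, date and sex differ together between the Moz and Myb controls, and also cannot be told apart. Moz control pool 1 was labelled as 5 males and 1 female. Myb control GC pool 1 was labelled as 1 male and 2 females, and pool 2 as 2 females. PB and GC B cells differ likewise in the boost, the day, the date and the sexes pooled as well as in cell type.

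MOZ, encoded by Kat6a, is a histone acetyltransferase of the MYST family that works in a complex with BRPF proteins, ING5 and MEAF6 and keeps chosen genes active in blood stem cells and B cells. GC B cells divide and mutate their antibody genes in lymphoid follicles, and leave as memory B cells or antibody-secreting cells. Plasmablasts are the dividing secretory cells of that second path. The 10 genes belong to no single pathway: they encode signalling proteins, cytoskeletal and adhesion proteins, secreted proteins, an ion pump subunit and a mitochondrial enzyme.

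Promoter sequence was matched for 5 of the 10 genes in RefSeq (build GRCm38.p6, the patch release of mm10). The 250 bases before each annotated start are shown because base composition split these 5 into a CpG-rich and a CpG-poor set. Both lower genes that were matched were CpG-rich. CpG dinucleotides are in capitals, and each run is written 5′ to 3′ on the strand of the gene. The windows were chr3:57847758-57848007 (minus strand) for Pfn2, chr1:164458356-164458605 (minus) for Atp1b1, chr11:6546637-6546886 (plus) for Ccm2, chr17:33555457-33555706 (plus) for Myo1f and chr15:83033398-83033647 (minus) for Nfam1.
Pfn2: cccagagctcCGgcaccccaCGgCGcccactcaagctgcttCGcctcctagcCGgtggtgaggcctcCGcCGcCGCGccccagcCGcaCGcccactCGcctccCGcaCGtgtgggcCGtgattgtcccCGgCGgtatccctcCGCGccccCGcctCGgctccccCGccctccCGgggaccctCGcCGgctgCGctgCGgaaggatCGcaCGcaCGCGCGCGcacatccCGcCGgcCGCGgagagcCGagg
Atp1b1: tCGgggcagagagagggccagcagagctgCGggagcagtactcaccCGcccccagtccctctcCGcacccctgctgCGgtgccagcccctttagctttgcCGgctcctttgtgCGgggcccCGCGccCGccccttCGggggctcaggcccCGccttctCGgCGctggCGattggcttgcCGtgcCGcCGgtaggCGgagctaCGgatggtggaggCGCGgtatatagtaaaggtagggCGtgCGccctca
Ccm2: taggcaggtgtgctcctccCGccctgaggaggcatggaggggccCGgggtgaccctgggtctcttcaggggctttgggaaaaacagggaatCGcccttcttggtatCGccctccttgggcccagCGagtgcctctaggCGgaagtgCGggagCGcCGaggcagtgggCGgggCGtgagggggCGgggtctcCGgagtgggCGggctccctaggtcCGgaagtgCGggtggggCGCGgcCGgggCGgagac
Myo1f: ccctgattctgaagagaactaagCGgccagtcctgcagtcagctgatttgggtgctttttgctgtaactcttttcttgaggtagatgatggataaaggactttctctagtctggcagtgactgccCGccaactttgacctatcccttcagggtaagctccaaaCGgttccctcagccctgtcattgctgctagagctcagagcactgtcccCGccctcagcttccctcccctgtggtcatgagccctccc
Nfam1: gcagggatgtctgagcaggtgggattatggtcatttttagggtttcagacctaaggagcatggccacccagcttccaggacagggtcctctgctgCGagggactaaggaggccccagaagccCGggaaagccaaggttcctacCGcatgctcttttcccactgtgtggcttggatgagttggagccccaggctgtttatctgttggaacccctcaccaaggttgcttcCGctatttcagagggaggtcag
Pfn2 had 38 CpGs, Atp1b1 24 and Ccm2 20, while Myo1f and Nfam1 had 4 each. Over the 32851 promoter windows of the same length in the table the median was 6 CpGs and the upper quartile 16. The GC box GGGCGG, read on both strands, occurred 5 times in Ccm2, 2 times in Atp1b1, 1 time each in Pfn2 and Myo1f, and 0 times in Nfam1, and it was present in 32.7% of all windows. Matches were counted as letters only. Of the 3 higher genes that were matched, 1 (Atp1b1) was in the upper quartile of CpG counts, and of the 2 lower genes both were. No sequence was used for the other members (for Camk2a, a higher gene, because entries on its chromosome were left out). This describes the matched genes only.

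Libraries held 8285934 to 24801297 counts, and values below are TMM-normalised CPM (library-size-scaled counts, with TMM correcting for library composition). Immunoglobulin transcripts made up 65.0 to 70.0% of PB counts and 1.59 to 9.16% of GC counts. Labelled cell types matched their markers: 10 of 10 plasmablast markers were called higher and 11 of 12 GC markers lower in control PB than in control GC B cells. Kat6a had 82.0 and 73.4 CPM in Moz control pools 1 and 2 and 66.4 and 93.7 in knockout pools 1 and 2 (log2 0.04, SE 0.38, edgeR adjusted p = 1). A count over the whole gene does not resolve a floxed exon, so it checks nothing about the deletion. The library labelled Myb knockout GC pool 1, labelled as 2 females, held 95.9 summed CPM of 4 Y-linked genes, against 0.645 and 0.411 in the second GC pools, which are labelled female only. For some members values are given with and without that library. Calls of markers and partner genes in Myb knockout GC B cells are given with it only. In the Moz experiment the same sum was 162 and 147 CPM in control and 133 and 59.9 in knockout pools 1 and 2. The sexes of Moz control pool 2 are not clear from its label. The part of sex in the Moz values was not tested.

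The myosin and cadherin genes stood higher in every Moz knockout pool than in either control pool. Myo1f (gene ID 17916, chr17:33555707-33607764) encodes a class I myosin, a single-headed motor of the cell membrane that is abundant in myeloid cells. It had 10.6 and 9.70 CPM in Moz control pools 1 and 2 and 26.2 and 26.7 in knockout pools 1 and 2 (2.60-fold higher; log2 1.38, SE 0.38). The knockout pools were nearly equal and well above both controls. Cdh17 (ID 12557, chr4:11758157-11817905) encodes a cadherin that mediates adhesion in intestine and in B-lineage cells. It had 5.87 and 7.61 CPM in control and 12.0 and 22.0 in knockout pools (2.52-fold; log2 1.33, SE 0.32). The groups did not overlap, but the fold was larger in pair 2 (log2 1.53) than in pair 1 (log2 1.03). Without knockout pool 2 it was log2 0.86, and without knockout pool 1 it was 1.70.

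Both secreted proteins were also higher. Dkk3 (ID 50781, chr7:112116019-112159482) encodes a Dickkopf family protein, a divergent relative of secreted Wnt antagonists. It had 1.89 and 1.23 CPM in control and 6.38 and 3.45 in knockout pools, with the largest fold of the 10 genes (3.15-fold; log2 1.65, SE 0.40). Without knockout pool 1 it was log2 1.15, and without knockout pool 2 it was 2.06. Tcn2 (ID 21452, chr11:3917077-3932078) encodes transcobalamin, the plasma carrier that delivers vitamin B12 to cells. It had 1.65 and 1.48 CPM in control and 5.05 and 4.26 in knockout pools (2.96-fold; log2 1.57, SE 0.45). Neither gene's groups overlapped, and both started from low levels: Dkk3 had 100 counts and Tcn2 102 counts over the 2 control pools.

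The signalling genes and the pump subunit were higher as well. Nfam1 (ID 74039, chr15:82996736-83033397) encodes a membrane receptor with an ITAM, the tyrosine motif through which antigen receptors signal, and activates NFAT. It had 8.30 and 8.33 CPM in control and 14.5 and 17.3 in knockout pools (1.91-fold; log2 0.94, SE 0.23). Camk2a (ID 12322, chr18:60925307-60988152) encodes the alpha chain of a calcium and calmodulin-dependent kinase best known from neurons. It had 2.90 and 2.59 CPM in control and 4.83 and 6.69 in knockout pools (2.10-fold; log2 1.07, SE 0.23). Its pairs differed, at log2 0.74 in pair 1 and 1.37 in pair 2, with no overlap of the groups. Atp1b1 (ID 11931, chr1:164437099-164458355) encodes the beta-1 subunit of the sodium-potassium pump. It had 4.01 and 5.10 CPM in control and 9.19 and 11.5 in knockout pools (2.27-fold; log2 1.18, SE 0.41), and its pairs were nearly equal (log2 1.19 and 1.18). The annotated Atp1b1 overlaps Nme7, which had 3217 counts against 2150 for Atp1b1 over all libraries. The strand setting of the counting was not given in the sources used here, so the split of reads between them is uncertain. Nme7 had 15.6 CPM in Moz control and 15.2 in Moz knockout (log2 -0.04, SE 0.31).

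The other genes, 3 in number, stood lower in both knockout pools. Adhfe1 (ID 76187, chr1:9547948-9577970) encodes a mitochondrial hydroxyacid-oxoacid transhydrogenase that turns hydroxybutyrate over and forms 2-hydroxyglutarate. It had 8.57 and 7.05 CPM in control and 3.32 and 2.62 in knockout pools (2.63-fold lower; log2 -1.40, SE 0.27), with pairs at log2 -1.37 and -1.43. Pfn2 (ID 18645, chr3:57841895-57847757) encodes profilin 2, which binds actin monomers and feeds filament growth. It had 14.9 and 17.5 CPM in control and 6.86 and 9.25 in knockout pools (2.00-fold lower; log2 -1.0, SE 0.26). Ccm2 (ID 216527, chr11:6546887-6596761) encodes a scaffold of the cerebral cavernous malformation complex, which binds KRIT1 and restrains the kinase MEKK3. It was the most abundant of the 10, with 184 and 193 CPM in control and 126 and 124 in knockout pools, and had the smallest change (1.51-fold lower; log2 -0.60, SE 0.19). In all 3 genes each knockout pool was below each control pool.

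The same separation of pools, with knockout and control not overlapping, held for 26.7% of the 13131 tested genes (13.3% higher and 13.4% lower), and since this contrast chose the 10 genes, nothing is read from their 10 of 10. A change of at least 1.5-fold in the same direction in both pairs was found for 7 of the members upward and 2 downward (all but Ccm2), against 2.59% and 0.998% of all genes. The same pairs chose the members, so nothing is read from these counts either. In the Moz comparison as a whole edgeR called 0.0% of genes at an adjusted p of 0.05 (0 of 13131, with 315 at an unadjusted p under 0.05), DESeq2 called 8 and limma-voom 0. With the replicate pair as a block edgeR called 39 genes, or 0.297%. In these bulk libraries fewer cells of a type and less RNA per cell cannot be told apart.

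**Figure D1:**
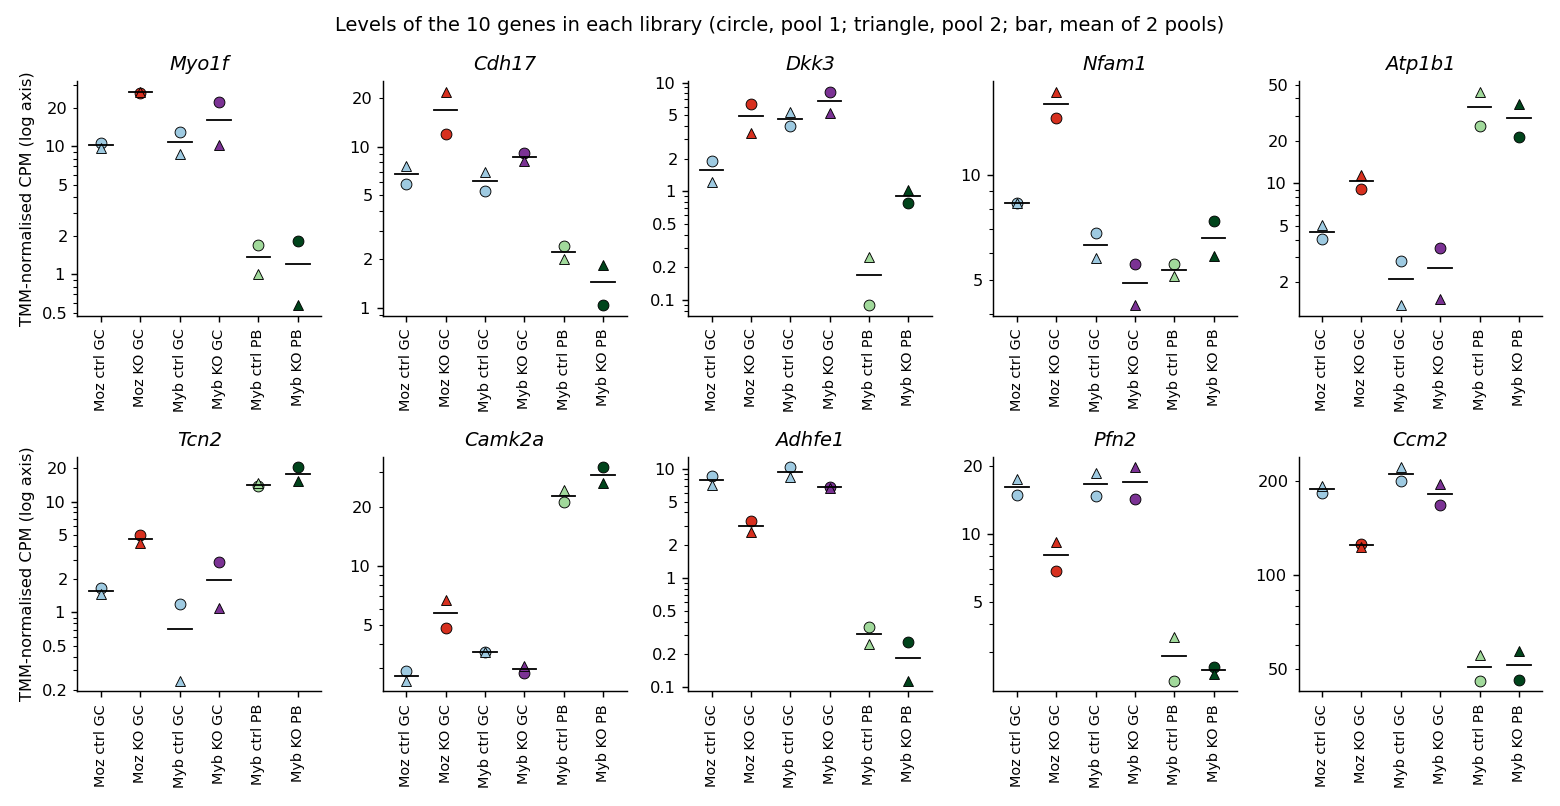
TMM-normalised CPM (log axis, a separate scale in each panel) of the 10 genes in the 2 pools of each of 6 groups; circles are pool 1, triangles pool 2 and bars the mean of 2 pools. Moz knockout GC pools (red) stand apart from Moz control pools in every panel, by 7 genes upward and 3 downward. The PB pools stand well above GC pools for Atp1b1, Tcn2 and Camk2a and well below for Adhfe1, Myo1f, Pfn2 and Ccm2. For Dkk3 they are also below, but Myb knockout PB pool 2 (1.03 CPM) is near Moz control GC pool 2 (1.23 CPM).

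In Myb knockout against control GC B cells 0 of 10 genes passed in edgeR, where 0.259% of all genes did (2.42% with the replicate block, again 0 members). An unadjusted p under 0.05 was found for 1 member and 755 of all genes, and DESeq2 and limma-voom also called 0 members. Tcn2 was nearest, with 1.19 and 0.242 CPM in control pools 1 and 2 and 2.84 and 1.10 in knockout pools 1 and 2 (log2 1.43, SE 0.57, edgeR adjusted p = 0.674; 0.0631 with the block). Pool 2 of the knockout lay below pool 1 of the control, so the groups overlapped. The Tcn2 estimate rests on single libraries: it was log2 0.57 without Myb knockout GC pool 1, the library with Y-linked counts, and 3.01 without control pool 1. Without knockout pool 1 Myo1f changed from log2 0.58 to -0.08, Atp1b1 from 0.26 to -0.48 and Dkk3 from 0.54 to 0.17, and 0 members were called.

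Among the other higher genes of the Moz comparison, Myo1f had 12.9 and 8.71 CPM in Myb control and 22.0 and 10.3 in Myb knockout GC pools (log2 0.58, SE 0.38, edgeR adjusted p = 1). In it pool 1 lay above pool 2 in both genotypes. Cdh17 had 5.31 and 7.01 CPM in control and 9.10 and 8.15 in knockout (log2 0.49, SE 0.33, edgeR adjusted p = 1). Dkk3 had 3.98 and 5.32 against 8.23 and 5.20 CPM (log2 0.54, SE 0.39, edgeR adjusted p = 1). Nfam1 was at 6.85 and 5.80 against 5.57 and 4.25 CPM (log2 -0.36, SE 0.24), and Camk2a at 3.63 and 3.63 against 2.84 and 3.08 CPM (log2 -0.29, SE 0.25), both with an edgeR adjusted p of 1. These 2 estimates have the sign opposite to the Moz values, which were 0.94 and 1.07.

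Pfn2 had 14.7 and 18.5 CPM in Myb control and 14.3 and 19.7 in Myb knockout GC pools (log2 0.03, SE 0.26). Adhfe1 had 10.3 and 8.46 against 6.84 and 6.64 CPM (log2 -0.47, SE 0.26), and Ccm2 200 and 222 against 168 and 196 CPM (log2 -0.21, SE 0.19); each edgeR adjusted p was 1. Groups did not overlap for Adhfe1, Ccm2, Nfam1 and Camk2a (lower) and for Cdh17 (higher), where 11.8% of all genes were apart downward and 13.8% upward.

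In plasmablasts 0 of 10 genes passed for Myb (0.0381% of all genes, 0.579% with the block; 1 member and 496 of all genes at an unadjusted p under 0.05 in edgeR; the block, DESeq2 and limma-voom also called 0 members). That member was Dkk3, with 1 and 2 counts in control pools 1 and 2 and 15 counts over the 2 knockout pools. Their ratio of rates was 5.82 (95% exact interval 1.65 to 31.3, for counting error only; edgeR adjusted p = 0.902). The other 9 estimates lay between log2 -0.75 and 0.36, with an edgeR adjusted p of 1 each. Adhfe1 and Dkk3 passed the low-count filter only through the GC libraries. They were not kept with the PB libraries alone, so their PB values are a description. Atp1b1 had 25.4 and 44.7 CPM in control PB pools 1 and 2 and 21.3 and 36.6 in knockout PB pools 1 and 2. Tcn2 had 13.8 and 14.7 against 20.4 and 15.5 CPM, and Camk2a 21.1 and 24.3 against 31.8 and 26.6. Every PB pool of either genotype was above every GC pool in these 3 genes. Ccm2 had 46.0 and 55.7 against 46.2 and 57.1 CPM, nearly the same in each pair. Nfam1 had 5.57 and 5.15 against 7.40 and 5.85 CPM, and Pfn2 2.25 and 3.51 against 2.60 and 2.41. Beside Dkk3, the genes lowest in PB were Cdh17 with 2.42 and 2.01 against 1.04 and 1.84 CPM, Myo1f with 1.71 and 1.00 against 1.82 and 0.574, and Adhfe1 with 6 counts over the control and 3 over the knockout pools. Knockout and control PB pools did not overlap for Camk2a, Tcn2, Dkk3 and Nfam1 (higher) and Cdh17 (lower), where 13.6% and 11.6% of all genes did not. The Myb difference in PB minus that in GC B cells passed for 0 of 10 genes (0.00762% of all genes, 0.541% with the block; 0 members and 489 of all genes at an unadjusted p under 0.05 in edgeR; the block, DESeq2 and limma-voom also called 0 members).

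**Figure D2:**
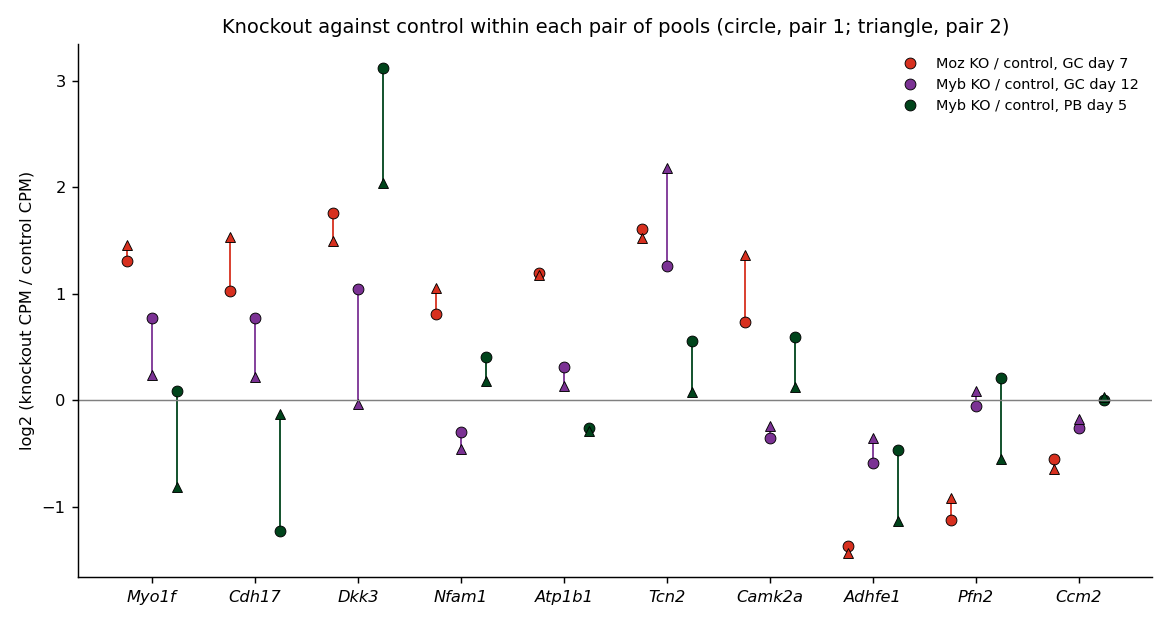
Log2 ratio of knockout to control CPM in each pair of same-numbered pools, for the Moz GC (red), Myb GC (purple) and Myb PB (green) comparisons; circles are pair 1, triangles pair 2 and lines join the pairs. The Moz values of the 7 higher genes lie between 0.74 and 1.76 and those of the 3 lower genes between -1.43 and -0.55. Both Myb GC values of Nfam1 and of Camk2a lie below 0, opposite to their Moz values.

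Between plasmablasts and GC B cells 9 of the 10 genes passed in edgeR in control libraries, where 53.2% of all genes did. Of the 9, Adhfe1 and Dkk3 passed the low-count filter only through GC libraries, so their calls are a description. Atp1b1, Tcn2 and Camk2a were higher in PB (25.0% of all genes were). Adhfe1, Dkk3, Myo1f, Pfn2, Ccm2 and Cdh17 were lower (28.1% of all genes). Nfam1 did not pass. Atp1b1 had 2.79 and 1.37 CPM in Myb control GC pools 1 and 2 and 25.4 and 44.7 in control PB pools 1 and 2 (log2 4.05, SE 0.48, edgeR adjusted p = 2.59e-05). Tcn2 rose from 1.19 and 0.242 to 13.8 and 14.7 CPM (log2 4.26, SE 0.54, edgeR adjusted p = 4.5e-05, from 17 and 3 counts in the GC pools), and Camk2a from 3.63 and 3.63 to 21.1 and 24.3 (log2 2.64, SE 0.24, edgeR adjusted p = 3.31e-06). Every PB pool was above every GC pool in these 3, and every PB pool was below every GC pool in the other 7, against 34.4% and 41.3% of all genes. Without control GC pool 1 the log2 value was 5.83 for Tcn2 and 4.65 for Atp1b1, and without control GC pool 2 it was 3.56 for Tcn2; the genes passed in each case.

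The genes lower in PB ran from near absence to a moderate fall. Adhfe1 had 252 counts over the control GC pools and 6 over the control PB pools (log2 -4.88, SE 0.39, edgeR adjusted p = 1.26e-06). Dkk3 had 123 counts and 3 counts, a ratio of rates of 29.3 in favour of GC B cells (95% exact interval 9.80 to 144; log2 -4.81, edgeR adjusted p = 6.98e-05). Its log2 value was -4.18 without control PB pool 1 and -5.61 without control PB pool 2. Adhfe1 and Dkk3 passed the low-count filter only through GC libraries, where they are high. Their calls between PB and GC B cells, in control and Myb knockout libraries, are therefore a description. Myo1f (log2 -2.95, SE 0.48), Pfn2 (log2 -2.55, SE 0.30) and Ccm2 (log2 -2.05, SE 0.20) were lower by less, with edgeR adjusted p of 0.000317, 2.72e-05 and 5.88e-06. Cdh17 had 5.31 and 7.01 CPM in GC and 2.42 and 2.01 in PB pools (log2 -1.46, SE 0.38, edgeR adjusted p = 0.00643). Nfam1 had 6.85 and 5.80 CPM in GC and 5.57 and 5.15 in PB pools (log2 -0.24, SE 0.25, edgeR adjusted p = 0.443).

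The Myb knockout libraries, which share none with the controls, called the same 9 genes in the same direction, Adhfe1 and Dkk3 again as a description. Of all genes 51.6% were called, 24.4% higher and 27.2% lower. There Nfam1 was at log2 0.43 (SE 0.25, edgeR adjusted p = 0.173), and Adhfe1 had 215 counts over the GC pools and 3 over the PB pools, a ratio of rates of 36.9 (95% exact interval 12.5 to 181). Pools were apart for 4 genes higher (the 3 and Nfam1) and 6 lower, against 32.9% and 41.0% of all genes. Without knockout GC pool 1 the same 9 were called, with Tcn2 at log2 4.01 (3.16 with it), Atp1b1 at 4.25 (3.52) and Myo1f at -3.14 (-3.78). Without knockout PB pool 1 or 2 Myo1f was at log2 -4.78 or -3.17, and without PB pool 1 Adhfe1 was at -5.77 (-5.15 with it). Scaling by total count, which leaves immunoglobulin transcripts in the comparison, moved the median of all genes from log2 -0.17 to -2.04 in control and to -2.21 in knockout libraries, and the called genes from 3289 higher and 3695 lower to 1108 and 9877 in controls. In knockouts they went from 3203 and 3567 to 884 and 10394. Under it Nfam1 passed as lower in controls (log2 -2.12), and Tcn2 no longer passed in knockouts (log2 1.10).

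Among the 7 genes higher in Moz knockout GC B cells, 3 were thus higher in PB than in GC B cells, 3 lower and 1 not called. Of the 3 genes lower in the knockout, 3 were lower in PB. Over all genes 25.0% were called higher and 28.1% lower in PB. The counts include Dkk3 and Adhfe1, whose calls are a description, and nothing is read from them. The Moz and control PB against GC comparisons share no library.

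**Figure D3:**
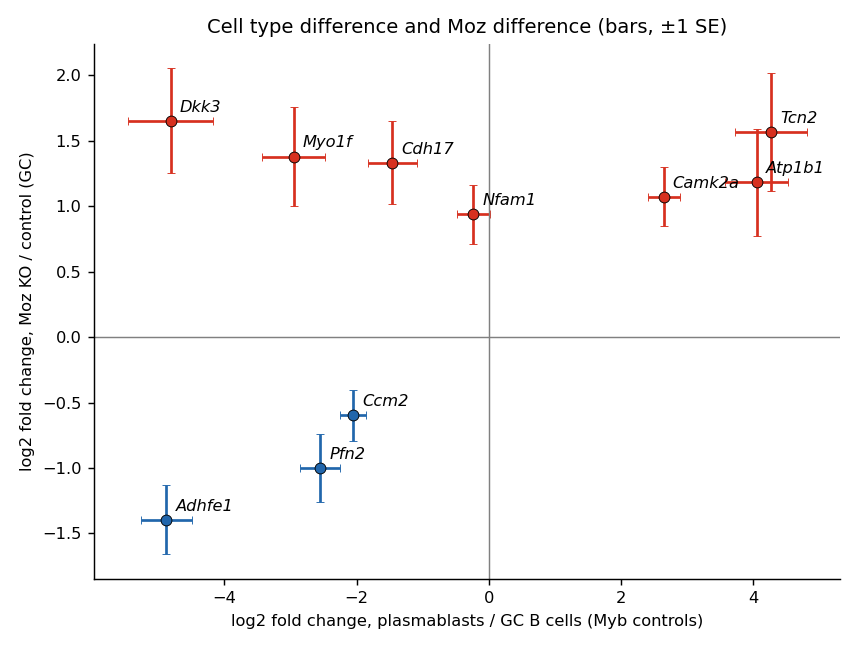
Log2 fold change of plasmablasts over GC B cells in Myb controls (horizontal axis) and of Moz knockout over control GC B cells (vertical axis) for the 10 genes; bars are 1 SE, red genes are higher and blue genes lower in the Moz knockout. Dkk3, Myo1f and Cdh17 lie to the left, Nfam1 at -0.24 and Camk2a, Atp1b1 and Tcn2 to the right, while Adhfe1, Pfn2 and Ccm2 all lie below 0 on both axes.

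For the 3 genes higher in both PB and Moz knockout GC B cells, the Moz difference was also set against the PB level. The Moz knockout pools exceeded the control pools by 14.8% and 18.4% (pairs 1 and 2) of the control PB level for Atp1b1, by 23.8% and 19.5% for Tcn2 and by 8.49% and 18.0% for Camk2a. The same measure over 10 plasmablast markers had a median of 1.46% (range -0.73 to 6.90%) in pair 1 and 2.70% (range -0.29 to 9.25%) in pair 2. All immunoglobulin genes together gave 0.748% and 1.24%. The Moz differences chose the 3 genes and did not choose the markers, so these values are a description and nothing is read from their order.

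**Figure D4:**
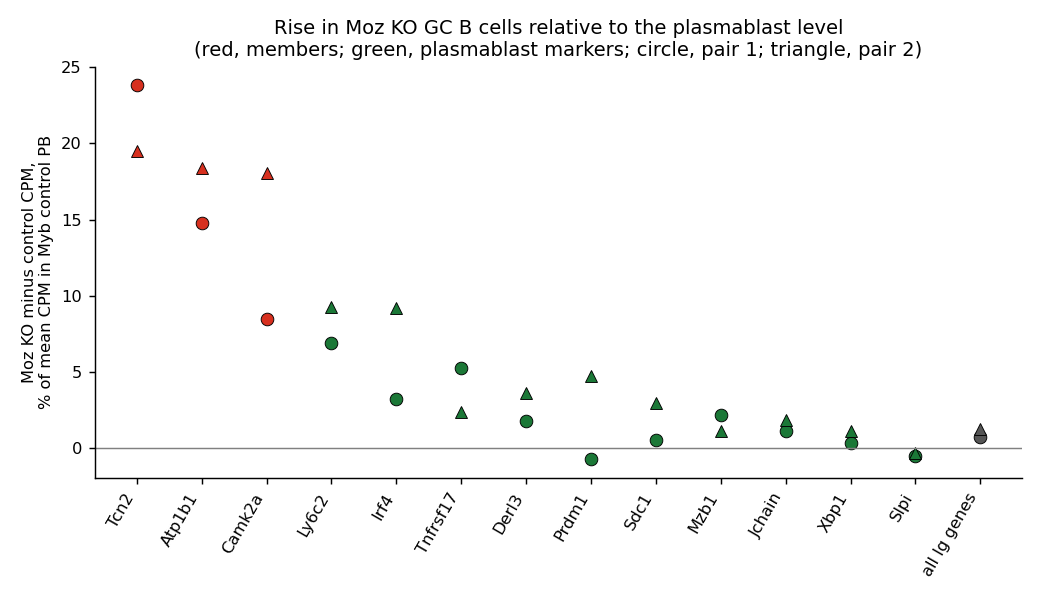
Difference between Moz knockout and control GC CPM as a percentage of the mean CPM in Myb control plasmablasts, in pair 1 (circle) and pair 2 (triangle), for 3 members (red), 10 plasmablast markers (green) and all immunoglobulin genes (grey). Tcn2 is at 23.8% and 19.5%, Atp1b1 at 14.8% and 18.4% and Camk2a at 8.49% and 18.0%, and the markers reach 6.90% in pair 1 and 9.25% in pair 2; the members were chosen on the Moz difference.

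Markers of other cells had these values in the Moz groups. Plasmablast markers had 9 of 10 estimates above 0, with sums of 5683 and 6326 CPM in control and 7147 and 8722 in knockout pools. Most of these sums was Jchain, with a mean of 4296 CPM in control and 6032 in knockout. Naive B-cell markers had 8 of 10 above 0 and sums of 604 and 514 against 627 and 656 CPM. Memory B-cell markers had 6 of 8 above 0, with sums of 352 and 298 against 279 and 342 CPM. T-cell markers had 4 of 7 tested above 0, and those of NK and plasmacytoid dendritic cells 1 of 5. Myeloid markers had 6 of 8 tested above 0, with sums of 15.3 and 23.1 CPM in control and 29.3 and 26.7 in knockout, and Elane at 0 in all of these pools. GC markers had 0 of 12 above 0, with sums of 4012 and 4076 against 3592 and 3823 CPM. No marker passed without the block; with it Ly6c2 (edgeR adjusted p = 0.000537; log2 1.62 without it) and Cd68 (edgeR adjusted p = 0.0422; log2 0.93 without it) did. In Myb knockout GC B cells 9 of 10 plasmablast marker estimates were above 0, with sums of 1301 and 2103 CPM in control and 1720 and 2544 in knockout pools. Prdm1, a regulator of plasma cell differentiation, passed there without the block (log2 2.34, edgeR adjusted p = 0.0248). That call is given only with Myb knockout GC pool 1, the library with Y-linked counts. The part of these cells in the members' values was not tested. Beside Myo1f, a gene of myeloid cells too, the summed myeloid markers in Myb GC pools 1 and 2 were 35.5 and 13.0 CPM in control and 45.2 and 11.6 in knockout. The PB pools had 42.0 to 93.9 CPM of these markers and 0.574 to 1.82 CPM of Myo1f. The sums mix markers that differed in direction. From Myb control GC to control PB, mean Csf1r went from 3.66 to 23.8 CPM and mean Lyz2 from 6.79 to 4.69. A link of Myo1f to myeloid RNA was not tested.

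In level per length (CPM per kilobase, which allows genes to be compared), Ccm2 was the highest in every GC group, at 89.7 ± 3.14 in Moz control and 59.3 ± 0.682 in Moz knockout. Pfn2 followed in Moz control at 8.01 ± 0.909 and stood at 3.99 ± 0.838 in the knockout, and Dkk3 was the lowest in Moz control at 0.464 ± 0.140 (SD, n = 2 pools). Across the 6 groups, Moz knockout GC B cells had the highest level of Myo1f, Cdh17 and Nfam1, and in each the pools did not overlap with the next group. Atp1b1, Tcn2 and Camk2a were highest in the PB groups, with Moz knockout GC B cells next and apart from the other GC groups in Atp1b1, Tcn2 and Camk2a. Dkk3 was highest in Myb knockout GC B cells, overlapping Moz knockout and Myb control. Adhfe1 and Ccm2 were highest in Myb control, and Pfn2 in Myb knockout GC B cells, and Moz knockout was the lowest of the GC groups in all 3.

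Levels in the controls of the 2 experiments are given side by side, with no test. Dkk3 had 1.89 and 1.23 CPM in the Moz controls (day 7) and 3.98 and 5.32 in the Myb controls (day 12), so that Moz knockout pools lay near the Myb controls. Atp1b1 had 4.01 and 5.10 against 2.79 and 1.37 CPM, and Tcn2 1.65 and 1.48 against 1.19 and 0.242. Adhfe1, Pfn2, Ccm2, Myo1f and Cdh17 differed between the controls by at most 0.26 in log2. The Moz minus Myb difference in GC B cells was largest for Camk2a (log2 1.37, SE 0.34), Nfam1 (log2 1.30, SE 0.33), Dkk3 (log2 1.12, SE 0.56) and Pfn2 (log2 -1.03, SE 0.37), given without a test because the Moz values chose the genes.

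Other genes of the members' families and pathways were read from fixed lists. Across 11 lists, 119 genes other than the members were tested, 0 passed for Moz in edgeR with or without the block, 67 had estimates above 0, and the median absolute log2 change was 0.15, against 0.16 for all genes. The more abundant profilin gene Pfn1, whose product binds actin as profilin 2 does, was at 1682 CPM in control and 1501 in knockout (log2 -0.16, SE 0.31); per kilobase its control level was 1933 against 8.01 for Pfn2. Another beta subunit of the pump, Atp1b3, was at 128 CPM in control and 97.1 in knockout (log2 -0.40, SE 0.28). The myosins Myo1g (log2 -0.06, SE 0.18), Myo1c (log2 0.01, SE 0.23) and Myo1e (log2 -0.03, SE 0.23) were within 1 SE of 0. The CCM partners Krit1 and Pdcd10 were at log2 -0.31 (SE 0.32) and -0.24 (SE 0.18).

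Cd320, the receptor of transcobalamin, was at 4.02 and 4.14 CPM (log2 0.04, SE 0.34) and the lysosomal B12 transporter gene Lmbrd1 at log2 0.02 (SE 0.18). The antigen receptor chain Cd79b was at log2 -0.23 (SE 0.31), and Syk, the kinase that binds ITAMs, at -0.03 (SE 0.26). Camk2d, the most abundant of the other kinase 2 chains, was at log2 0.19 (SE 0.20). Idh2 and D2hgdh, enzymes of 2-hydroxyglutarate metabolism, were at log2 -0.13 (SE 0.21) and 0.19 (SE 0.24). The MYST and MOZ complex list had 7 of 11 estimates above 0, with a median of log2 0.04. Cadherins and catenins had the largest median of the 11 lists, log2 0.58, with 5 of 7 tested estimates above 0 and 0 called. The most abundant gene of that list, Ctnnb1, was at log2 -0.16 (SE 0.24). In Myb knockout GC B cells, 3 of the 119 partners passed with the block, where 2.42% of all genes did (log2 values from the fit without it): Fxyd5 (log2 1.15, edgeR adjusted p = 0.00921), a regulator of the pump, Fcer1g (log2 1.47, edgeR adjusted p = 0.023), an ITAM adaptor, and Fzd6 (log2 3.82, edgeR adjusted p = 0.00384), a Wnt receptor. Without the block their edgeR adjusted p were 0.352, 0.382 and 0.128. All these values include Myb knockout GC pool 1, the library with Y-linked counts. In Myb knockout GC B cells Fzd6 had a mean of 2.16 CPM (SD 1.79, n = 2 pools). In Myb knockout plasmablasts 2 of the 119 passed with the block, where 0.579% of all genes did: Fcer1g (log2 1.28 without the block; edgeR adjusted p = 0.0163 with it and 0.842 without) and Itpr1, a calcium channel of the endoplasmic reticulum (log2 -0.83 without the block; edgeR adjusted p = 0.0425 with it and 1 without).

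**Figure D5:**
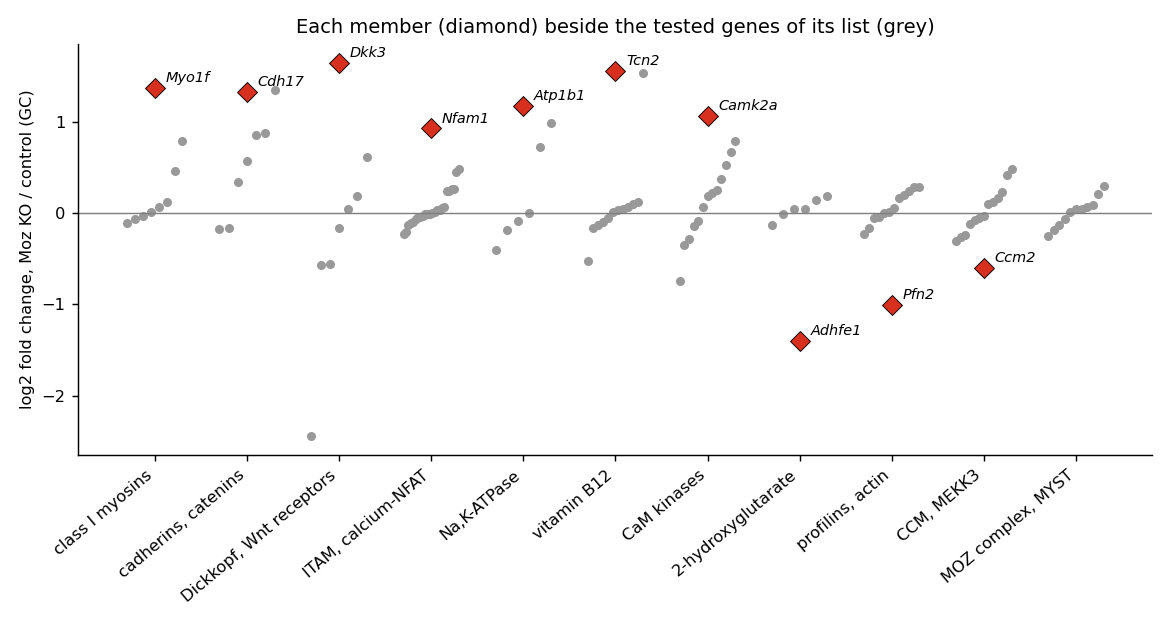
Log2 fold change of Moz knockout over control GC B cells for each member (diamond) beside the other tested genes of its list (grey points), with the MOZ complex list at the right. The members lie beyond most or all of their partners, as genes chosen on this contrast; the farthest grey point, Fzd1 at -2.45, had under 0.04 CPM.

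Neighbouring genes on the chromosome were compared as well. The nearest tested gene on each side of each member gave 20 genes, of which 0 passed for Moz in edgeR with or without the block and 10 had the sign of their member. Their median absolute log2 change was 0.17, against 0.16 for all genes. Slc35e4, a predicted carrier gene that lies 2.41 kb from Tcn2, had the largest value (0.257 to 0.811 CPM; log2 1.62, SE 0.54, edgeR adjusted p = 1). Rrs1, 493 bases from Adhfe1, was at log2 -0.33 (SE 0.21).

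Across the 8 GC libraries, the genes whose log2 CPM was most like a member's were found by Pearson's r, given without a p because these libraries share the Moz contrast. They were Snx25 (0.991) and Fas (0.961) for Adhfe1, Pld4 (0.983) and Dusp1 (0.967) for Myo1f, Manba (0.989) and Rffl (0.981) for Atp1b1, and Agpat2 (0.976) and Rap1gap (0.974) for Tcn2. For Cdh17 they were Scpep1 (0.937) and Gaa (0.936), for Nfam1 Gucy2c (0.983) and Kctd14 (0.976), for Camk2a Arsa (0.939) and Sh2d3c (0.919), and for Dkk3 Pigz (0.931) and Trim62 (0.929). Pfn2 was nearest to Rfesd (0.977) and Rbmx (0.970), and Ccm2 to Pes1 (0.978) and Eya1 (0.968). Among the members, Adhfe1 and Cdh17 ran most opposite (r = -0.96), while Atp1b1 and Nfam1 (r = 0.93) and Ccm2 and Pfn2 (r = 0.93) ran most alike. Dkk3 was least like the other 9, with r between -0.25 and 0.46.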

How the data were processed

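Values are gene counts deposited by the authors, for 27179 Entrez IDs. The submitters' processing notes name featureCounts and the build mm10; aligner, versions and strand setting were not given in the sources used here. Each library's own file equalled the series table (0 values differing). RefSeq (GRCm38.p6) gave symbols for 25275 IDs.

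One edgeR 4.0.16 fit (R 4.3.3) held all 12 libraries and 6 group means (6 residual degrees of freedom), with TMM scaling, filterByExpr (minimum count 10, total 15; 13131 genes kept, 250 of them immunoglobulin), two-sided quasi-likelihood F tests and Benjamini-Hochberg adjustment (limit 0.05). The steps were tested on simulated data. Per the labels, a knockout and a control pool with 1 number share their dates, which pairs them; their deviations correlated at 0.600 (Myb GC), 0.453 (Myb PB) and 0.361 (Moz GC). P-values measure the spread between pools of mice. In the main fit, which leaves the pairing out, that spread includes differences between the dates that paired pools share. Pools of a group differed far beyond sampling noise (26.3 to 96.1 as chi-square over its degrees of freedom).

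The members, lists and naming rule were chosen with earlier results of these data known. Named genes are the 10 members in every library, Kat6a, the 2 genes most correlated with each member over 8 GC libraries, the nearest tested gene on each side, and the called or most abundant genes of each partner list; genes called only between plasmablasts and GC B cells are not listed singly, nor are all the most abundant. Markers are given as sums, with those named that passed in the Moz comparison or, without the block, for Myb. Alternatives were DESeq2 1.42.0, limma-voom (limma 3.58.1), DESeq2 size factors, total-count scaling, no low-count filter, immunoglobulin genes left out, the compared groups alone, the replicate block, and each library left out. Promoters were matched only where an entry began at the annotated gene start. Entries on chromosome 18, which holds Camk2a, were left out of the matching, so none was used for Camk2a. No promoter was matched for Adhfe1, Tcn2, Cdh17 and Dkk3.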

Additional observations from a re-analysis of the deposited data

How the results depend on the processing

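The number of members called stayed within 1.5 times under each alternative (0 in the Myb comparisons, 9 or 10 for PB against GC in controls, 9 in knockouts), and the 7 Moz estimates above 0 were above 0 in each. The numbers for PB against GC include Adhfe1 and Dkk3, whose calls are a description. Of 738 comparisons of a member with an alternative, 712 were counted as unchanged. In the tested comparisons that meant the same direction and side of the limit. In the Moz comparison, which was not tested, it meant an estimate within 1 SE of the main one. There 115 of 120 met it, 5 moved further and 0 reversed. The reversals were in members that were not called in the main fit. With 1 pool left out, Myb GC log2 values ran from -0.075 to 1.02 (Myo1f), -0.48 to 0.87 (Atp1b1; -0.16 without control pool 2) and -0.23 to 0.25 (Pfn2; -0.13 without control pool 1). In Myb PB they ran from -1.24 to 0.37 (Myo1f; 0.22 without control pool 1), -0.73 to 0.21 (Atp1b1; 0.097 without knockout pool 1), -0.49 to 0.17 (Pfn2) and -0.15 to 0.20 (Ccm2; -0.10 without control pool 1). For the PB minus GC difference they ran from -0.88 to 0.21 (Adhfe1), -1.14 to 0.21 (Atp1b1) and -0.51 to 0.15 (Pfn2). Total-count scaling, chosen after seeing the data, gave Ccm2 -0.057 in Myb PB and Nfam1 -1.63 for PB against GC in knockouts; the cause of these changes was not tested. With the replicate block, 0 members were called in the Myb comparisons, and the genes called overall went from 34 to 318 (Myb GC), 5 to 76 (Myb PB), 1 to 71 (difference) and 0 to 39 (Moz). DESeq2 called 159, 48, 43 and 8, and edgeR with no filter 320, 104, 136 and 55. Without Moz knockout pool 1 or 2, Cdh17 was at 1.70 or 0.86 and Dkk3 at 1.15 or 2.06, and Camk2a was at 0.84 without pool 2. The number of pools limits precision, as do the counts of Adhfe1 and Dkk3 in PB.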
